A study of Homo sapiens with 2 samples.

Results

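To examine where LDB1 sat around the genes of the GATA factors of blood and of their cofactor, the LDB1 peaks of GATA1, GATA2, GATA3 and ZFPM1 (which encodes FOG1) were collected. A peak was taken as a member when it overlapped the body of one of these 4 genes in GENCODE release 44 or lay within 100 kb of it, and 32 of the 11046 deposited LDB1 peaks did so. The peaks came from CUT&Tag, in which an antibody brings a transposase to a protein on chromatin and the DNA nearby is cut and tagged, on the human cell line NB4, which derives from acute promyelocytic leukemia. The series held 1 library with an LDB1 antibody, from cells labelled as overexpressing LDB1, and 1 with IgG, labelled as untreated. Antibody and treatment thus differed together, and with 1 library each there were no replicates to test. The authors deposited where each LDB1 peak lay and how long it was, without its height, and the depth behind the peaks is unknown. Each 95% interval below is exact (Clopper-Pearson) and covers counting error only.

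LDB1 does not bind DNA itself. In blood cells it joins LMO2 to a pair of DNA-binding proteins, an E-box factor such as TAL1 with its partner and a GATA factor, so that the complex rests on an E-box and a GATA motif set a fixed distance apart. GATA1 drives red cell and megakaryocyte differentiation, GATA2 maintains blood stem and progenitor cells, and GATA3 acts mainly in T cells. FOG1 binds the GATA factors rather than DNA, and the GATA factor genes are known targets of their own products.

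The motifs counted were the GATA motif (AGATAA, also with T as its first base or G as its last), the E-box (CAGCTG or CAGATG) and a composite of both. The composite was CTG, the last bases of an E-box, followed after 7 or 8 bases by a GATA motif, and all motifs were searched on both strands. The 32 peaks held 13 composites, in 11 of the peaks. Those that the results turn on are printed here from hg38 in the direction of the composite, 5′ to 3′, with CTG and the GATA motif in capitals and 20 bases on each side.
GATA1 -0.73 kb peak (chrX:48785955-48786010, minus strand): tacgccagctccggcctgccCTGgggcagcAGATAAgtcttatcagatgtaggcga
GATA1 14.7 kb peak (chrX:48800974-48801030, minus strand): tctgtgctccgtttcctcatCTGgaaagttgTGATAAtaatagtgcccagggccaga
GATA2 -80.9 kb peak (chr3:128574088-128574144, plus strand): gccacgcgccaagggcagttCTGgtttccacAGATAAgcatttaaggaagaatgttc
GATA2 -3.71 kb peak (chr3:128496662-128496718, minus strand): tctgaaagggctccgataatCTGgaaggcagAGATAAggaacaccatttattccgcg
GATA2 -2.36 kb peak (chr3:128495580-128495636, minus strand): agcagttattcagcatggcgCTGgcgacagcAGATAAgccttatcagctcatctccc
GATA2 10.1 kb peak (chr3:128483291-128483347, minus strand): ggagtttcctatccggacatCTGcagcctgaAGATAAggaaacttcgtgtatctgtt
ZFPM1 2.86 kb peak (chr16:88455972-88456028, minus strand): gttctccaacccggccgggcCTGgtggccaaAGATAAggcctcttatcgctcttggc
ZFPM1 39.9 kb peak (chr16:88491813-88491869, minus strand): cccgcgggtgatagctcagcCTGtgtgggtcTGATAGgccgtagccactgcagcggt
Peaks are named here by the distance of their midpoint from the canonical transcription start site (TSS) of the gene, with upstream negative.

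The number of peaks differed sharply between the 4 genes. GATA1 had 10 peaks in its window of 207.8 kb, GATA2 had 10 in 213.8 kb, ZFPM1 had 12 in 283.8 kb, and GATA3 had 0 in 229.8 kb. Over 20033 protein-coding genes with windows drawn in the same way, the median was 1 peak (quartiles 0 and 3, highest 50). At least 10 peaks were found for 612 genes (3.05%) and at least 12 for 338 genes (1.69%). At least 1 peak was found for 58.3% of the genes and no peak for 41.7%, so that a window with no peak, as at GATA3, was common while the counts at the other 3 genes were reached by few. Windows of neighbouring genes overlap, so these genes are not independent of each other.

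**Figure D1:**
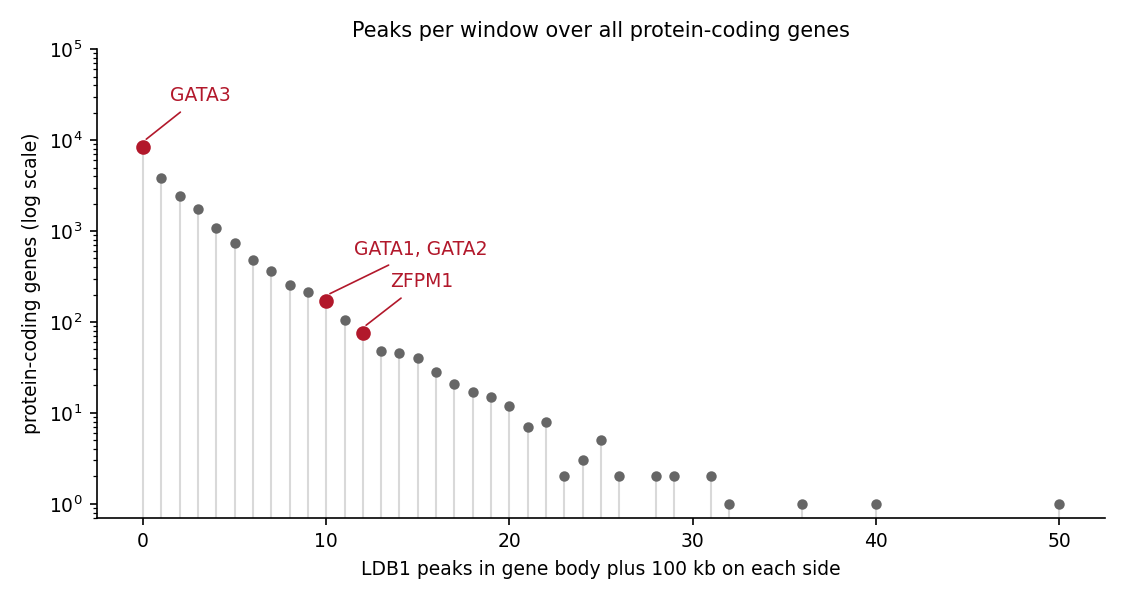
Number of protein-coding genes (log scale) by the number of LDB1 peaks in the gene body plus 100 kb on each side, with 1 point for each number of peaks and the member genes' points in red. GATA3 sits with the 8346 genes at 0 peaks, while GATA1 and GATA2 at 10 and ZFPM1 at 12 peaks sit where few genes remain.

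Longer genes have wider windows, so the counts were also set per length. The density was 4.81 peaks per 100 kb at GATA1, 4.68 at GATA2 and 4.23 at ZFPM1, against a median of 0.423 over all protein-coding genes. A density at least as high was found for 1.87%, 2.11% and 2.80% of the genes, respectively. The chromosomes differed in their own densities, with 0.168 peaks per 100 kb on chromosome X, 0.364 on chromosome 3 and 0.416 on chromosome 16. Peaks covered 10306 bp of the GATA1 window (4.96%), 6455 bp of the GATA2 window (3.02%) and 14431 bp of the ZFPM1 window (5.09%). GATA2 thus had as many peaks as GATA1, but they covered less sequence.

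The peaks lay differently around each gene. By their midpoints, 5 of the 10 peaks at GATA1 were upstream, 2 in introns and 3 downstream, while GATA2 had 6 upstream, 1 in an intron and 3 downstream. At ZFPM1, 10 of 12 were in introns, 1 was upstream and 1 was in the noncoding part of the last exon. The gene body was overlapped by 4 peaks at GATA1, 1 at GATA2 and 11 at ZFPM1. A body overlapped by at least 11 peaks was found for 23 protein-coding genes (0.115%), one with at least 4 for 1.89% and one with at least 1 for 16.5%. The gene bodies differ in length, with 7772 bp at GATA1 (3.74% of its window), 13775 bp at GATA2 (6.44%) and 83752 bp at ZFPM1 (29.5%). The body was overlapped by 40% of the peaks at GATA1, 10% at GATA2 and 91.7% at ZFPM1. Any overlap counted, so long peaks at the ends of a short body were included, and these shares cannot be set directly against the shares of length. At GATA1, 4 peaks overlapped the body but only 2 had their midpoint in it. Each share rests on 10 or 12 peaks. The peaks farthest out that were still counted lay 89.8 kb from the body at GATA1, 80.8 kb at GATA2 and 249 bp at ZFPM1. The first peaks not counted lay 125.9, 337.4 and 150.9 kb away.

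**Figure D2:**
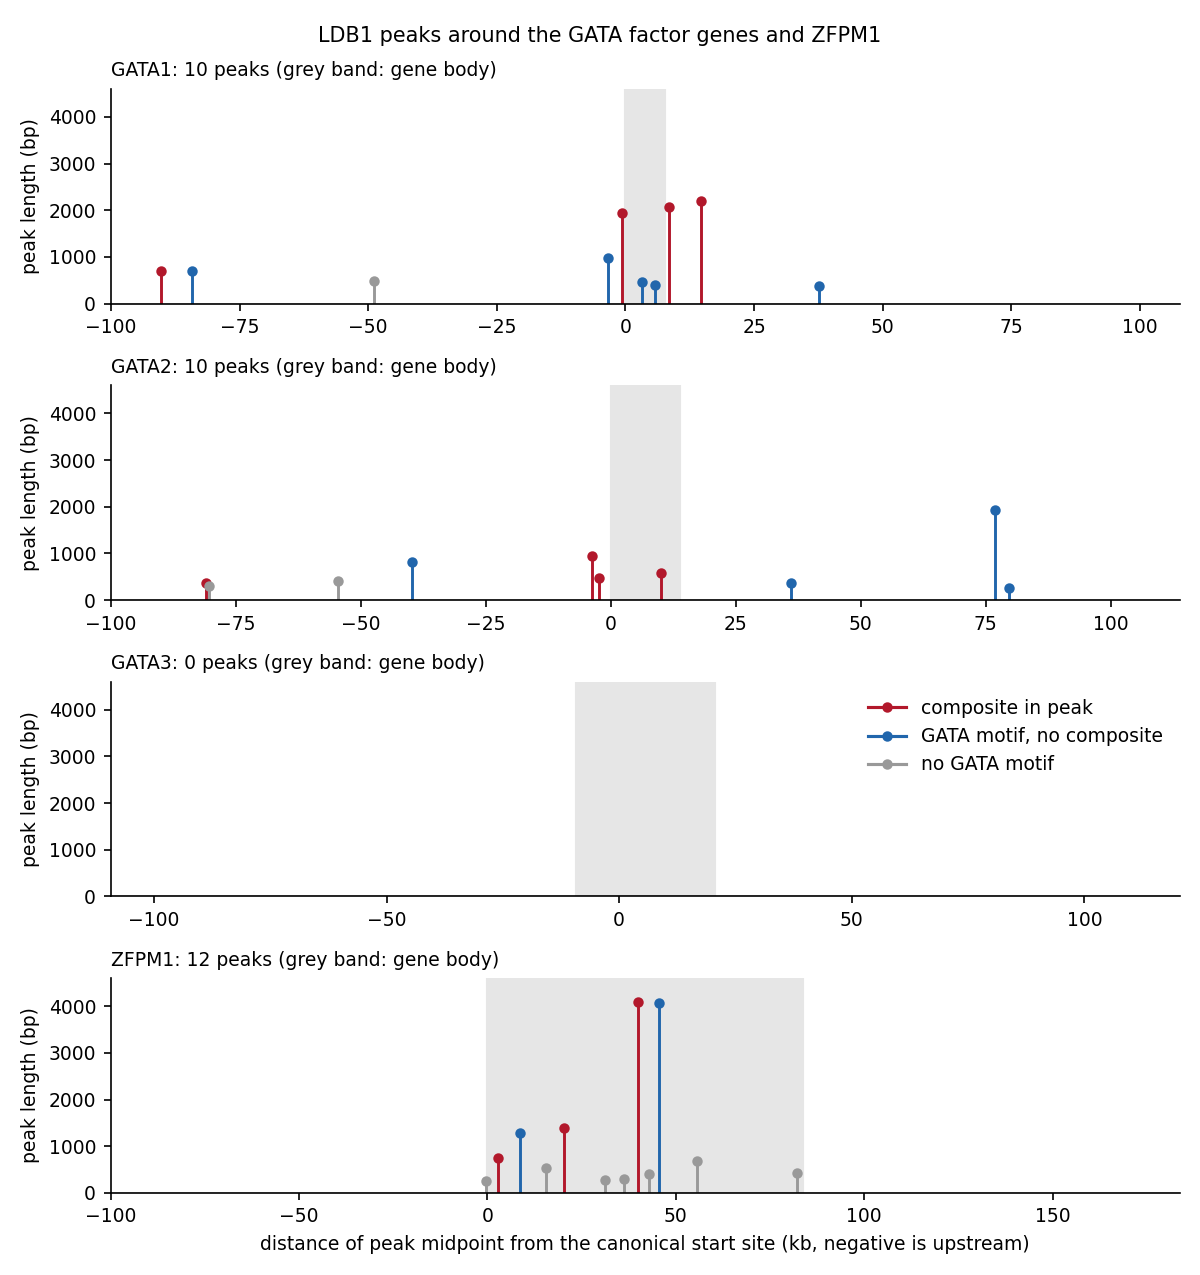
Each LDB1 peak of the 4 windows by the distance of its midpoint from the canonical start site (kb) and its length (bp, stem height), coloured by whether the peak holds a composite, a GATA motif without one, or neither, with the gene body in grey. GATA1 and GATA2 peaks lie at the gene and farther out on both sides, ZFPM1 peaks lie almost all in the gene body, and the GATA3 panel is empty.

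GATA1 (ENSG00000102145.16) is on the plus strand at chrX:48786540-48794311, with 6 exons and its canonical TSS at 48786590. The -0.73 kb peak, chrX:48784889-48786824, was 1936 bp long, covered all 4 distinct annotated starts of GATA1 and reached 56 bp into exon 1. It was one of the longest peaks of the library, at rank 170 of 11046. It held 6 GATA motifs, 4 E-boxes and 1 composite, with the composite 608 bp upstream of the TSS and 126 bp from the midpoint. The GATA motif of that composite was itself followed, after 3 bases, by another GATA motif in inverted form. This pair is described with a like site at GATA2 further on.

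The start of GATA1 lay inside this peak, but the GATA motifs did not lie at the start itself. The RefSeq promoter of GATA1, from 250 bases before to 50 after the start on GRCh38.p14, is printed because it was the one promoter of the 4 genes that a peak covered in full. It held no GATA motif, no E-box and 1 KLF motif (CCNCACCC, a site of KLF factors such as KLF1), shown in capitals.
GATA1 promoter (chrX:48786340-48786639, plus strand): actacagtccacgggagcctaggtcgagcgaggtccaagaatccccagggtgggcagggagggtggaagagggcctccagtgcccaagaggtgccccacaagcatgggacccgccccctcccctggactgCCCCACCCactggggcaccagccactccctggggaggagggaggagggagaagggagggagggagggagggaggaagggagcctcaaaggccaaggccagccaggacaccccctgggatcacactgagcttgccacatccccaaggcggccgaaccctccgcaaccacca
Of 35116 RefSeq promoters of this length, 25.0% held a GATA motif, 1.34% a composite and 18.3% a KLF motif. A missing match says only that these letters are not in the window. The RefSeq table held 10 promoters of the 4 genes: 1 of GATA1, 2 of GATA2, 6 of GATA3 and 1 of ZFPM1. None of the 10 held a GATA motif, and apart from that of GATA1 only the ZFPM1 promoter touched a peak, by 2 bp.

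A second upstream peak of GATA1, at -3.41 kb (chrX:48782689-48783667, 979 bp), held 2 GATA motifs and 2 E-boxes but no composite. Its densest stretch of 240 bases is shown on the plus strand, with a GATA motif and an E-box in capitals. On the minus strand it reads as a full E-box (CAGCTG), 9 bases and AGATAA, 1 base more than the composite rule accepted. A GATA motif 9 bases after CTG was found in 4 of the 32 member peaks, all in the GATA1 window, and this was the one with a full E-box. The same count over all peaks was not made, so it cannot be read as a trait of GATA1.
GATA1 -3.41 kb peak (chrX:48782896-48783135, plus strand): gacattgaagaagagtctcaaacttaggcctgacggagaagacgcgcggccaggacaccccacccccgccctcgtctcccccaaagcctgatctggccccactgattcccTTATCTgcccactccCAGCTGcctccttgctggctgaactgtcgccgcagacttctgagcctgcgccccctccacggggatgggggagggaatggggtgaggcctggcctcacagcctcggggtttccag
Inside the gene, a peak of 466 bp in intron 1 at 3.15 kb (chrX:48789506-48789971) held 2 GATA motifs and 1 E-box. A peak of 405 bp at 5.69 kb (chrX:48792079-48792483) had its midpoint in intron 3 but lay mostly over exons 3 and 4, with 289 coding bp, and held 1 GATA motif. These 2 peaks inside the gene were close to the library's median length of 451 bp, while the peaks at both ends of the gene were long.

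At the far end of GATA1, the 8.46 kb peak (chrX:48794018-48796078) was 2061 bp long, at rank 142, and covered 294 bp of exon 6, of which 144 bp were coding. It held 2 GATA motifs, 1 of them in a composite 438 bp from the midpoint. The longest peak of the window was the next one, at 14.7 kb (chrX:48800172-48802375), with 2204 bp and rank 113. It held 10 GATA motifs, the most of any member peak, and 2 composites, of which the one printed above carried a full E-box (CATCTG). Its midpoint was 104 bp from a TSS of HDAC6, a deacetylase gene next to GATA1, so it cannot be assigned to GATA1 by position.

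Other peaks of the GATA1 window also lay at neighbouring genes. The -90.2 kb peak (chrX:48696009-48696704, 696 bp) was 378 bp from a TSS of SUV39H1, a histone methyltransferase gene, and held 3 GATA motifs and 2 composites. A peak of 708 bp at -84.3 kb was inside SUV39H1 and held 2 GATA motifs and 2 E-boxes. The peak of 482 bp at -48.9 kb held no GATA motif, and that of 369 bp at 37.7 kb lay inside HDAC6, 2268 bp from a TSS of ERAS, with 1 GATA motif. GATA1 had the nearest protein-coding TSS for 4 of the 10 peaks. The window held 8 further protein-coding genes, compared with 2 at GATA2, 1 at GATA3 and 2 at ZFPM1.

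GATA2 (ENSG00000179348.13) is on the minus strand at chr3:128479427-128493201, with its canonical TSS at 128493201. No peak covered an annotated start of GATA2. The nearest to the canonical TSS was the -2.36 kb peak (chr3:128495324-128495802, 479 bp), and the -3.71 kb peak (chr3:128496435-128497384, 950 bp) lay next to it, both inside GATA2-AS1, an antisense RNA gene. Each held a composite with AGATAA, 2407 and 3489 bp upstream of the TSS. The -3.71 kb peak held 4 GATA motifs, all of them in the stretch printed here on the gene's strand with the motifs in capitals, and no E-box.
GATA2 -3.71 kb peak (chr3:128496564-128496803, minus strand): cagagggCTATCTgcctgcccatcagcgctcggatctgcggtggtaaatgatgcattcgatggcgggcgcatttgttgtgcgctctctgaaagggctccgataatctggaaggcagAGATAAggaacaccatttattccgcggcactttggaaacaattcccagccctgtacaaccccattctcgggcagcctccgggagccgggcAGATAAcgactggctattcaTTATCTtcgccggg
The motifs lay on both strands, 2 in each direction, and the second of them belonged to the composite.

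The single peak inside GATA2 was the 10.1 kb peak (chr3:128482826-128483409, 584 bp) in intron 4. It held 1 GATA motif, and this motif was part of a composite with a full E-box, CATCTG, 8 bases ahead of AGATAA. An E-box and GATA element in an intron of GATA2 is known as an enhancer that blood stem cells need, and whether this peak is that element was not checked here. The peak was 1039 bp from another annotated TSS of GATA2. It also held 1 AP-1 motif (TGACTCA or TGAGTCA) and 2 KLF motifs, so that it carried more kinds of motif than the upstream pair, which held GATA and RUNX motifs alone.

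Of the other peaks upstream of GATA2, 2 lay close together in LINC01565, a noncoding RNA gene. The -80.9 kb peak (chr3:128573957-128574311, 355 bp) held a composite 18 bp from its midpoint, the most central of all 13, while the -80.3 kb peak (300 bp) held none of the motifs counted. The -39.8 kb peak of 806 bp held 3 GATA motifs and 1 E-box, but 76.3% of its stretches of 31 bases occurred once in hg38, the lowest share of the 32 peaks. The -54.6 kb peak of 404 bp had no GATA motif. Of these 4, GATA2 had the nearest protein-coding TSS for the last 2 and RPN1 for the pair in LINC01565.

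Downstream of GATA2, the longest peak of the window lay at 76.9 kb (chr3:128415353-128417288). It was 1936 bp long, at rank 170 like the GATA1 start peak, and held 3 GATA motifs, 7 E-boxes and 5 KLF motifs but no composite. DNAJB8, a chaperone gene, had the nearest protein-coding TSS, 50570 bp away. The remaining downstream peaks, at 36.1 and 79.7 kb, were 374 and 267 bp long and held 2 and 1 GATA motifs. The composites of GATA2 were thus in the upstream, start-proximal and intron peaks, and none lay downstream. No peak was added when the window was widened to 200 kb.

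ZFPM1 (ENSG00000179588.9) is on the plus strand at chr16:88453280-88537031, with 10 exons. A small peak of 249 bp at -0.37 kb (chr16:88452783-88453031) lay just ahead of the TSS and held neither a GATA motif nor an E-box. In intron 1, the 2.86 kb peak (chr16:88455767-88456514, 748 bp) held the composite printed above, with AGATAA. Also in intron 1, the 20.4 kb peak (chr16:88472962-88474361, 1400 bp) held 5 GATA motifs, 7 E-boxes and a composite with TGATAG. Its densest stretch is printed on the plus strand because 3 E-boxes and 2 GATA motifs stood there within 240 bases, all in capitals.
ZFPM1 20.4 kb peak (chr16:88473517-88473756, plus strand): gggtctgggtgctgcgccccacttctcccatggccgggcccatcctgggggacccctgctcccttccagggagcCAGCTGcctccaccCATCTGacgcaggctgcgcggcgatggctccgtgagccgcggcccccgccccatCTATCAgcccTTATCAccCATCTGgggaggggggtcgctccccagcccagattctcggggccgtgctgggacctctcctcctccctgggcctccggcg
A peak of 1288 bp at 8.62 kb in the same intron held 1 GATA motif and 1 E-box.

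Intron 3 of ZFPM1 held the longest member peaks. The 39.9 kb peak (chr16:88491164-88495251) was 4088 bp long and the 45.5 kb peak (chr16:88496727-88500786) was 4060 bp long, at ranks 7 and 8 of the 11046 peaks. A peak of 398 bp lay between them. The first held 7 GATA motifs, 5 E-boxes, 29 KLF motifs and a composite with TGATAG, 1366 bp from the midpoint. The second held 6 GATA motifs, 10 E-boxes and 12 KLF motifs but no composite. The KLF motifs of the first stood in a regular row, with 23 of the 28 steps between neighbours a multiple of 20 bp. Such regular steps occur in tandem repeats, so the motifs are not read here as separate sites. Whether the sequence is a repeat was not checked. Longer peaks also hold more sequence, so these counts cannot be set beside those of shorter peaks. In the first, 95.9% of the stretches of 31 bases occurred once in hg38, and in the second 97.3%. The central 31 bases of the first occurred 2 times, the only one of the 32 centres that was repeated, against 12.6% of all peaks.

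The 7 remaining peaks of ZFPM1, the small one ahead of the TSS among them, held no GATA motif and were between 249 and 677 bp long. At 15.5 kb, 1 of them (531 bp) was 177 bp from the TSS of MIR5189, a microRNA gene inside ZFPM1, and at 82.1 kb another (427 bp) lay wholly in the noncoding part of exon 10. Of the 12 peaks, ZFPM1 had the nearest protein-coding TSS for 11. A GATA motif was present anywhere in the peak for 5 of 12 peaks at ZFPM1, 9 of 10 at GATA1 and 8 of 10 at GATA2. The share over all peaks was 71.4%. The intervals, 15.2 to 72.3%, 55.5 to 99.7% and 44.4 to 97.5%, overlapped each other and included that share. Composites were present in 3, 4 and 4 peaks, and in 22.4% of all peaks.

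GATA3 (ENSG00000107485.18), on the plus strand at chr10:8045378-8075198, had no LDB1 peak in its window, and the nearest peak of the library lay 661383 bp from the gene body. Chromosome 10 held 501 peaks, or 0.374 per 100 kb. The window did not lack motifs, with 495 GATA motifs and 20 composites in hg38, as many composites as the GATA1 window and more GATA motifs than any of the other 3. A count of 0 in a list of called peaks says that no region passed the authors' threshold, not that LDB1 was absent.

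To relate the peaks to the sites available, each motif in hg38 was asked whether it lay in a peak. Of the composites in the window, 6 of 20 at GATA1 lay in a peak (30.0%, interval 11.9 to 54.3%), 4 of 9 at GATA2 (44.4%, 13.7 to 78.8%) and 3 of 19 at ZFPM1 (15.8%, 3.38 to 39.6%). At GATA3 it was 0 of 20, which the absence of peaks fixed in advance. Over hg38, 2721 of 224764 composites lay in a peak (1.21%). The intervals at GATA1, GATA2 and ZFPM1 overlapped each other, and they treat sites as independent although 1 peak can hold several. Windows with more of their length in peaks also hold more sites in peaks. Peaks covered 4.96%, 3.02% and 5.09% of these windows, a larger part than over hg38, and at GATA3 no site could lie in a peak. These shares thus partly restate the counts above, and whether they exceed what the peak cover gives was not tested.

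**Figure D3:**
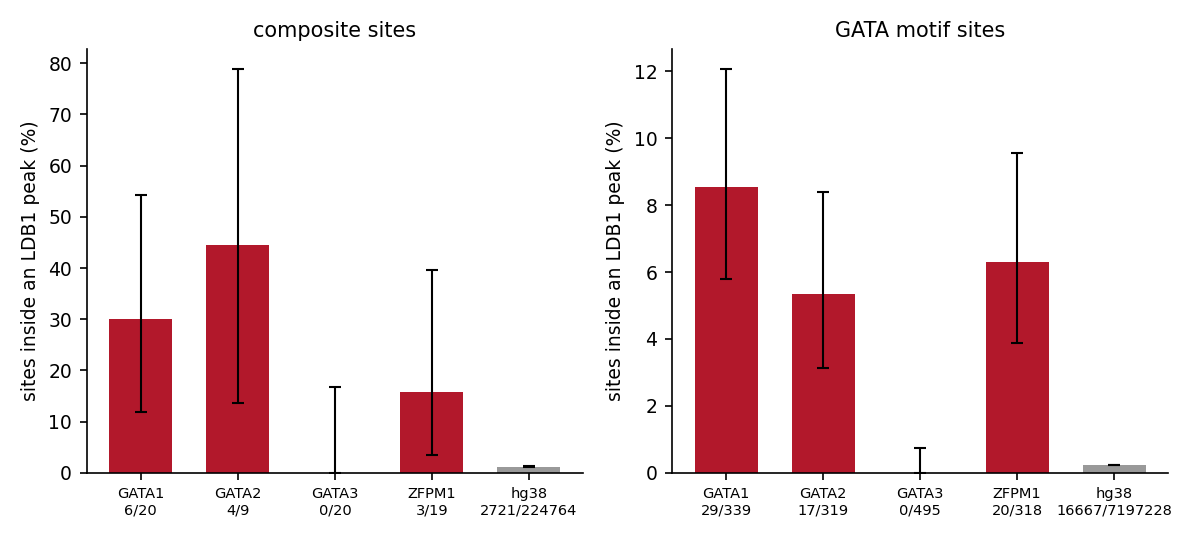
Share of composite sites (left) and GATA motif sites (right) inside an LDB1 peak (%) in each window and in hg38, with exact 95% intervals as error bars and the number in peaks over the number of sites under each bar. GATA1, GATA2 and ZFPM1, with more of their length in peaks, stand above hg38 for both motifs, and GATA3, with no peak, is at 0. The error bar at GATA3 carries no information, since no site there could lie in a peak.

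GATA motifs, those of the composites included, were counted in the same way. In a peak lay 29 of 339 at GATA1 (8.55%, 5.80 to 12.1%), 17 of 319 at GATA2 (5.33%, 3.13 to 8.40%) and 20 of 318 at ZFPM1 (6.29%, 3.88 to 9.55%), against 0.232% over hg38. At GATA3 it was 0 of 495, again fixed by the absence of peaks. Sites shared peaks, with 10 of the 29 at GATA1 in the 14.7 kb peak, so intervals that treat sites as independent are too narrow. The shares also depend on how much of each window lay in peaks, as for the composites. In the 4 windows together, 66 of 1471 GATA motifs (4.49%) and 13 of 68 composites (19.1%) lay in a peak. Even in these windows, most motif sites therefore lay outside the called peaks.

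**Figure D4:**
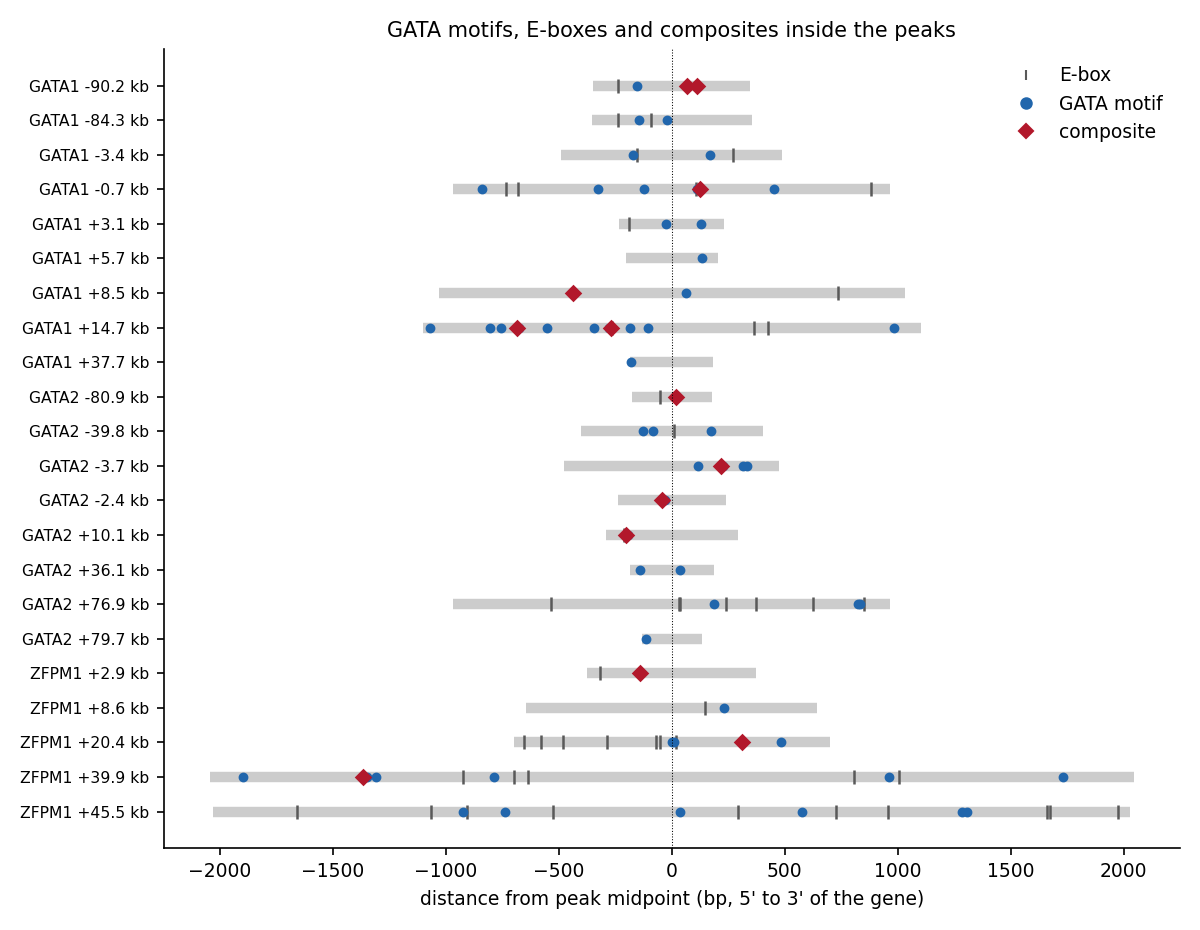
Positions of E-boxes (ticks), GATA motifs (circles) and composites (diamonds) relative to the peak midpoint (bp, 5′ to 3′ of the gene) in the 22 member peaks with a GATA motif, with grey bars for the peaks. Composites lie on either side of the midpoint, 3 of the 13 within 100 bp of it, and 1 of them 1366 bp away in the 39.9 kb peak of ZFPM1.

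Among the 13 composites, the spacing was 8 bases in 10 (76.9%) and 7 bases in the others, compared with 8 bases in 63.8% of the 2721 composites over all peaks. The GATA motif was AGATAA in 6 (46.2%), including all 4 at GATA2, and in 52.2% over all peaks. A full E-box ahead of the spacing was counted as CA, any base and CTG, which is wider than the E-box defined above. It was found in 2 of 13 (15.4%), at GATA1 14.7 kb and GATA2 10.1 kb, both CATCTG, compared with 377 of 2721 (13.9%) over all peaks. The direction was that of the gene in 7 of 13. The peaks with a composite had a median length of 950 bp (355 to 4088) and those without one 427 bp (249 to 4060).

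A pair of inverted GATA motifs separated by 3 bases was seen at GATA1 and at GATA2 in the printed sequences, and was counted after that. Both are written on the strand of the gene, with the GATA motifs in capitals.
GATA1 -0.73 kb peak (chrX:48785966-48785980, plus strand): TGATAAgacTTATCT
GATA2 -2.36 kb peak (chr3:128495591-128495605, minus strand): AGATAAgccTTATCA
In both, 1 motif of the pair was also the GATA motif of the composite. Such a pair was present in 20 of all 11046 peaks (0.181%), and a pair joined to a composite in 7 peaks (0.0634%), of which these were 2. Of 5506 such pairs in hg38, 20 lay in a peak (0.363%). The spacing of 3 bases was not the commonest among inverted pairs in all peaks, where 2 bases occurred 32 times and 5 bases 37 times. A palindromic GATA pair upstream of GATA1 is known as a site through which the gene is regulated by GATA factors, and whether the pair here is that site was not checked.

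The member peaks had a higher median length than the library, but not beyond counting error. It was 557.5 bp (interval 404 to 950 bp), with a range of 249 to 4088 bp, and that of all peaks was 451 bp. Over 1000 bp were 8 of the 32 (25%, interval 11.5 to 43.4%), compared with 10.5% of all peaks, a value just below that interval. By gene the median was 702 bp at GATA1, 441 bp at GATA2 and 604 bp at ZFPM1.

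Within the central 200 bp, GATA motifs had no higher share in the member peaks than in the library. They were found in 10 of 32 (31.3%, interval 16.1 to 50.01%), and in 47.1% of all peaks. Composites were found in 3 of 32 (9.38%, 1.98 to 25.0%), and in 11.1% of all peaks. The E-box share was 21.9%, against 33.8% of all peaks, the RUNX share (TGTGGT or TGCGGT) was 15.6% against 20.5%, and the ETS share (CAGGAAGT or CCGGAAGT) was 3.13% against 2.36%. For these 5 motifs the members' interval included the value of all peaks.

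KLF motifs were the exception. They were found in the central 200 bp of 11 of 32 member peaks (34.4%, 18.6 to 53.2%), and in 13.6% of all peaks. Member peaks were also richer in GC, with a median of 61.3% in the central 200 bp against 51.5% over all peaks. In flanking windows 1000 bp to either side of the member peaks the KLF share was 20.3%. The part of base composition in the KLF share was not tested. AP-1 motifs were found in 1 member peak (3.13%), against 9.48% of all peaks, within the interval of 0.0791 to 16.2%.

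Motifs were also counted over whole peaks. A composite was present anywhere in 11 of 32 member peaks (34.4%, 18.6 to 53.2%), and in 22.4% of all peaks, a value within the members' interval. A GATA motif was present in 22 of 32 (68.8%), against 71.4%. Since longer peaks hold more sequence, the composite share was also set out by length. Among peaks over 666 bp it was 8 of 15 in the members (53.3%) and 38.9% in all peaks. From 451 to 666 bp it was 2 of 5 (40.0%) and 23.3%, from 314 to 451 bp 1 of 7 (14.3%) and 17.5%, and up to 314 bp 0 of 5 and 9.80%. Each class of the members held few peaks. In the flanking windows of the member peaks, 0 of 64 held a composite and 18.8% a GATA motif, and 15 of these 64 windows overlapped a peak.

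A TSS was no more frequent near the member peaks than near others. The midpoint was within 3 kb of an annotated TSS for 12 of 32 (37.5%, 21.1 to 56.3%), and for 35.6% of all peaks. Of these 12, the TSS belonged to a member gene for 5: at GATA1 -0.73 kb, GATA2 -2.36 and 10.1 kb, and ZFPM1 -0.37 and 2.86 kb. The others lay at SUV39H1, HDAC6, ERAS, LINC01565, MIR5189 and an unnamed noncoding gene upstream of GATA1.

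The other genes of the family had fewer peaks than GATA1, GATA2 and ZFPM1. The windows of GATA4, GATA5 and GATA6, the GATA factors of heart, gut and other tissues outside blood, held 4, 3 and 2 peaks. ZFPM2, which encodes FOG2, had 4 in a window of 1414 kb, and TRPS1, a repressor with a GATA type zinc finger, had 0. All 5 were below the 10 to 12 peaks of GATA1, GATA2 and ZFPM1, but only TRPS1 was as low as GATA3. Over all protein-coding genes the median was 1 peak and the upper quartile 3.

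Among 11 genes of the LDB1 complex and its direct partners, all had at least 1 peak, with a median of 6. Over all protein-coding genes, 58.3% had at least 1 peak and 3.05% at least 10. The lists here and that of the family were chosen with earlier results of these data known. Their counts are therefore a description and not independent support. LMO2, the bridging protein, had 14 peaks, TAL1, its E-box factor, had 13, and CBFA2T3, a co-repressor of the complex, had 20, so that 3 of 11 reached 10 peaks. LYL1, the close relative of TAL1, had 7, RUNX1 had 5, TCF3 had 2, LMO4 had 1, and LDB1 itself had 1. SSBP2, SSBP3 and SSBP4, which stabilize LDB1, had 1, 9 and 6. Of 8 genes that act with or under GATA factors in blood, all had a peak and 1 reached 10, with a median of 4.5. NFE2, a megakaryocyte and red cell factor, had 16, KLF1 and MYB had 8 each, GFI1B had 6, ZBTB7A had 3, SPI1 had 2, and CEBPA and KIT had 1 each. GATA1, GATA2 and ZFPM1 thus stood beside LMO2, TAL1, CBFA2T3 and NFE2 in their counts, which were the highest of these lists. The other listed genes had fewer, with 1 peak each at LDB1, LMO4, SSBP2, CEBPA and KIT. A peak with a composite was present in the windows of 7 of the 11 and 7 of the 8 genes. It was present for 3 of the 4 members, 2 of the 5 other family genes and 30.4% of all protein-coding genes. Windows with more peaks have more chances to hold one.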

How the data were processed

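The series held 1 LDB1 and 1 IgG CUT&Tag library of NB4 cells. The authors aligned the reads with Bowtie2 2.4.4 (hg38) and used MACS3 3.0 to call peaks from paired-end fragments. Whether IgG served as control is not stated, and a list called without one would hold more open or repeated sequence. The methods do not mention LDB1 overexpression for CUT&Tag, though the label does. The authors deposited each peak's start, end and length (bp), with no score, q-value or summit, so the midpoint stood for the summit, and length is given as length alone, since how it relates to strength was not tested. The IgG library was not used here.

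Genes came from GENCODE release 44, sequence from hg38 and promoters from RefSeq. Peaks were counted in gene bodies plus 100 kb, and motifs on both strands. Counting was tested on simulated data, where 200 of 200 gene counts and 1000 of 1000 composites were recovered. In each window the longest peak, those with a composite and those nearest to a start were described singly. Genes, lists and motifs were chosen with earlier results of these data known, and the inverted pair and the spacing of 9 bases at GATA1 were singled out after seeing the member sequences. Scripts used numba 0.67.0, matplotlib 3.10.9, pandas 2.3.3, numpy 2.4.6 and SciPy 1.17.1 in Python 3.11.15. Alternatives covered window width, nearest TSS, peak length, merging, repeated sequence, motif window and motif definition.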

Additional observations from a re-analysis of the deposited data

How the results depend on the processing

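The peak counts depended on the window. GATA1 had 5 peaks with 3 kb on each side, 16 with 200 kb and 4 when the nearest protein-coding TSS had to be its own, instead of 10. GATA2 had 5 peaks with 50 kb, 2 with 3 kb and 5 by the nearest TSS, instead of 10. Keeping peaks above the median length of the library left 5 at GATA2 and 7 at ZFPM1. GATA3 stayed at 0 under the 7 alternatives. The share of member peaks with a GATA motif was 68.8% over the whole peak and 15.6% with AGATAA alone, instead of 31.3%. The composite share was 34.4% over the whole peak and 0% over 3 kb from any TSS, instead of 9.38%. The share near a TSS was 18.8% within 1 kb, instead of 37.5%. Over 8 results, 30 alternatives stayed within 1.5 times the count, within the interval of the share or, for the median length, within its interval, and 13 did not. Merging peaks less than 1 kb apart left 28 member peaks. No paired analysis was possible because there was 1 library per group. Without heights or depth, weak and strong peaks cannot be told apart.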
